A study of Mus musculus with 2 samples.

Results

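The 9 genes described here, Alox12b, Aloxe3, Abca12, Elovl4, Ugcg, Slc27a4, Dgat2, Abhd5 and Cyp4f39, make, modify or move the lipids of the epidermal water barrier. They were taken by gene name from the non-control probes of the array, which carried 24323 named genes on 33182 probes, and all 9 were found there on 13 probes. Total RNA of tooth and of skin from wild-type mice was hybridised to Agilent whole-genome arrays in a single colour, with 1 array for each tissue. The labels give postnatal day 0 for both tissues, and the study's methods name a stage 1 day later. The study's methods give C57BL/6J as the wild-type strain. No sex, body site of the skin, treatment or number of animals per array was found in the labels or methods. With a single array on each side, the comparison has no test, and the errors printed below are those that the extraction software attached to single spots.

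The outermost layers of the epidermis hold water by means of stacked lipid sheets between dead, flattened cells. Keratinocytes elongate fatty acids to extreme lengths, hydroxylate their far end, join them to a sphingoid base and esterify linoleic acid to the tip, which gives acylceramide. The lipids are glucosylated, loaded into lamellar granules and secreted, and lipoxygenases then oxidise the linoleate so that the ceramide can be bound to the protein envelope of the cell. Inherited defects of several of these genes cause ichthyosis, a group of scaling skin disorders. The tooth at this age is built by ameloblasts, which lay down enamel, and by odontoblasts, which lay down dentin, and neither makes a cornified layer.

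Barrier lipid genes were higher in skin as a group, but by very different amounts. All 9 were well above background in skin and 7 were in tooth, where Abca12 and Cyp4f39 were not. At least 2-fold higher values in skin were found for 8 of the 9 genes, against 14.2% of the 17409 named genes that were well above background on 1 array or more. None was at least 2-fold higher in tooth, where the share over the same genes was 15.5%. The median difference of the 9 genes was 5.49 (log2, skin minus tooth), beside -0.04 for all those genes. The values fell into a high and a low set with a gap between them. Alox12b, Aloxe3, Abca12, Cyp4f39, Elovl4 and Dgat2 differed by 4.38 or more, whereas Abhd5, Ugcg and Slc27a4 differed by 1.80 or less. The place of Alox12b rests on its brightest probe, since the other probe gave 1.52. The median was 4.38 with that other probe or with the mean of all probes, and 4.22 with normexp background correction. In whole tissues, fewer cells of a type and less RNA per cell cannot be told apart. Values below are log2 of the spot intensity after the 75th percentile of its array was subtracted, so 0 is the level of that percentile, and a gene with several probes is represented by the brightest of them.

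**Figure D1:**
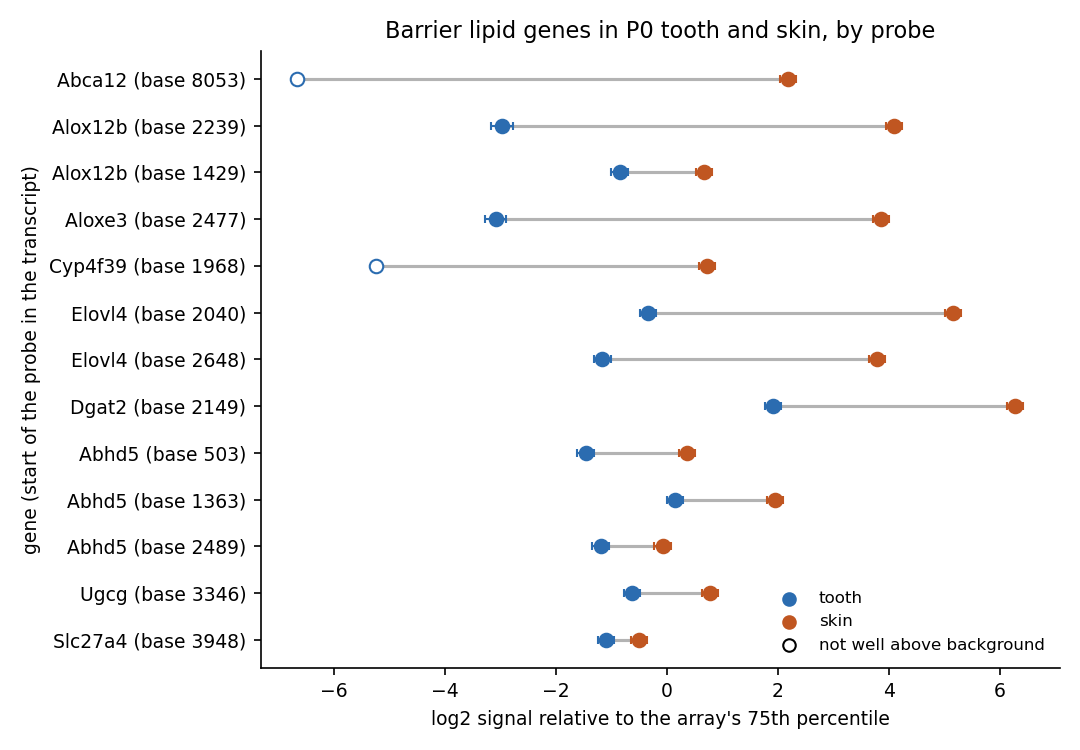
Scaled level of each of the 13 probes of the 9 genes (horizontal axis, log2 signal relative to the 75th percentile of the array), with the tooth array in blue, the skin array in orange, and the start of the probe in its transcript in brackets. Bars are the software's error of a single spot and open circles mark values not well above background; every skin point lies to the right of its tooth point, by 0.60 in Slc27a4 and by 7.07 in the brightest probe of Alox12b.

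The arrays matched their labels by defining markers. All 9 suprabasal epidermal markers (keratins 1, 2 and 10, loricrin, filaggrin, involucrin and others) were at least 2-fold higher in skin. Their scaled levels, summed on the linear scale and not as log2, came to 9.29 in tooth and 4334 in skin. In tooth 8 of the 9 were well above background, with log2 levels from -3.21 (filaggrin) to 1.44 (loricrin), and involucrin was not. All 7 enamel markers were higher in tooth, with sums of 2194 in tooth and 0.288 in skin, where 6 of the 7, amelogenin included, were not well above background. The odontoblast markers Dspp, Dmp1 and Phex were well above background in tooth only. Of 6 basal epithelial markers, 2 passed 2-fold toward skin by their brightest probes and the other 4 lay within 2-fold. All 6 were well above background on both arrays. The brightest probe of Itga6 differed by -0.20, but its other probe, also well above background on both arrays, was higher in tooth (-4.39). The part of cell composition in the differences below was not tested.

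Fatty acid activation and elongation came first in the order of the pathway. Slc27a4, which encodes the fatty acid transport protein FATP4, gave an intensity of 199.9 ± 20.4 in tooth and 195 ± 20.0 in skin before scaling. These intensities overlapped within their errors. After scaling the levels were -1.10 in tooth and -0.50 in skin, which differ by 0.60 ± 0.21 (log2) or 1.51-fold. The 75th percentile of the tooth array, 428, was 1.55 times that of the skin array, 276, so the sign of this small difference came from the scaling. When the arrays were scaled to spike-in transcripts instead, the difference was -0.03. Slc27a4 was thus the 1 gene of the 9 for which the data gave no direction that held under every scaling tried.

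Elovl4, the elongase that extends fatty acids to the ultra-long chains of acylceramide, was measured by 2 probes. The brighter probe gave -0.34 in tooth and 5.15 in skin, which differ by 5.49 ± 0.20 or 45.1-fold. The other probe, which began at base 2648 of the transcript, gave -1.16 in tooth and 3.79 in skin, higher by 4.95 ± 0.21 or 30.9-fold. Both probes were well above background on both arrays, and their differences lay 0.54 apart. In tooth the spot of the brighter probe was read at its nominal position, because the software did not locate it.

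Cyp4f39, the cytochrome P450 that hydroxylates the far end of ultra-long fatty acids, was well above background in skin only. Its intensity was 11.2 ± 4.54 in tooth and 456 ± 45.9 in skin. The scaled level in skin was 0.72, 37.8-fold above the lowest signal that the tooth array placed well above background. Folds given below as "at least" were taken over such a limit. Some brighter tooth spots still missed that call (Mogat1, -4.26), so these folds are nominal limits and not strict lower bounds. Ugcg, which encodes glucosylceramide synthase and so caps ceramides with glucose before they are packed, was measured in both tissues. Its levels were -0.63 in tooth and 0.78 in skin, which differ by 1.41 ± 0.21 or 2.66-fold. Ugcg stayed at least 2-fold higher in skin under all settings tried except spike-in scaling, where the difference was 0.79.

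Dgat2 and Abhd5 act on triacylglycerol, the storage fat from which linoleate is drawn. Dgat2 encodes the acyltransferase of the last step of its synthesis. The probe gave 1602 ± 160.3 in tooth and 21518 ± 2152 in skin, or 1.90 and 6.28 after scaling. The difference of 4.38 ± 0.20 was 20.8-fold, and Dgat2 was well above background in both tissues. Abhd5 encodes CGI-58, a lipase cofactor, and had 3 probes. The brightest gave 0.15 in tooth and 1.95 in skin, which differ by 1.80 ± 0.20 or 3.49-fold. The probe that began at base 503 gave a difference of 1.83 ± 0.21, from -1.47 to 0.36, and the probe at base 2489 gave 1.12 ± 0.21, from -1.20 to -0.08. Each of the 3 Abhd5 probes thus passed 2-fold in the direction of skin under the reported scaling. Spike-in scaling, which lowered every difference by 0.62, takes the probe at base 2489 below 2-fold. In skin the spots of that probe and of the brightest probe were read at their nominal positions, because the software did not locate them.

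Markers of fat-storing cells were mostly higher in skin as well. The share at least 2-fold higher in skin over the 17409 measured named genes was 14.2%. Of 9 adipocyte markers, 8 were well above background on 1 array or more and all 8 were at least 2-fold higher in skin. Their summed linear level was 1.97 in tooth and 21.0 in skin (10.67-fold). Adipoq, Plin1, Cidec, Lep and Cfd were not well above background in tooth, nor was Lep in skin. Of 9 sebocyte markers, 8 were at least 2-fold higher in skin, with sums of 3.73 and 29.9 (8.02-fold), and Elovl3, Awat1, Awat2 and Far2 were not well above background in tooth. Their part in the differences of Dgat2, Abhd5 and Elovl4 was not tested.

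Abca12, the transporter that loads lipid into lamellar granules and is lost in harlequin ichthyosis, was read by 1 probe. Its intensity was 1249 ± 125 in skin, whereas the tooth spot was not well above background and carried a surrogate value of 4.21. The scaled level in skin was 2.18, 103-fold above the lowest signal placed well above background in tooth. The probe lay on chromosome 1 (chr1:71289874-71289933, minus strand, mm9), as the file headers give it.

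The lipoxygenases Alox12b and Aloxe3 act in sequence on the linoleate of acylceramide. Alox12b makes a hydroperoxide and Aloxe3 rearranges it to an epoxyalcohol. Aloxe3 gave 50.4 ± 6.58 in tooth and 4034 ± 403 in skin, or -3.09 and 3.87 after scaling. The difference of 6.96 ± 0.24 was 124-fold. The brighter probe of Alox12b gave 54.5 ± 7.29 in tooth and 4726 ± 473 in skin, or -2.97 and 4.10 after scaling. Its difference of 7.07 ± 0.24 was 134-fold. By these probes both genes were dim but well above background in tooth. The other probe of Alox12b, described below, read 237 in tooth. The ranks that follow use the brightest probe of each gene. Among the 15271 named genes measured on both arrays, 51 had a larger difference than Alox12b, 56 than Aloxe3, 108 than Elovl4 and 195 than Dgat2, while 843 had a larger one than Abhd5, 1152 than Ugcg and 2921 than Slc27a4.

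The other probe of Alox12b did not give the same result. It read -0.85 in tooth and 0.67 in skin, which differ by 1.52 ± 0.21 or 2.87-fold, from intensities of 237 ± 24.2 and 439 ± 44.2. Both probes were higher in skin, but their differences lay 5.55 apart. For the 3241 genes with exactly 2 probes well above background on both arrays, the middle value of this gap was 0.26 and its 99th percentile 2.79. In 5 of these genes, Alox12b itself among them, the gap was at least as large as that of Alox12b. The probes are shown with their places in the transcript, and why their readings differed was not tested. The probe at base 1429 lay at chr11:68979536-68979770 in mm9, a span of 235 bases for 60 bases of probe, so an intron separates its ends. The probe at base 2239 lay at chr11:68983186-68983245, and it runs across the end of the coding sequence. The stop codon is in capitals, and the codon before it is ATC, for the isoleucine with which lipoxygenases end.
Alox12b probe at base 1429: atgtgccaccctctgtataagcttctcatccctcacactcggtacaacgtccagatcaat
Alox12b probe at base 2239: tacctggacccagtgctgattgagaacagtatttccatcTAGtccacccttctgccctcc

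The start regions of the genes were compared because most of the 9 were higher in skin together. RefSeq windows of 250 bases before and 50 bases after the annotated start (GRCm38.p6) were at hand for 7 of the 9 genes. Aloxe3 and Dgat2 had no window. Those of 4 genes with large differences and of Slc27a4, with the smallest, are shown. Capitals mark GGGCGG on either strand, the GC box bound by Sp1-type factors, in which CCGCCC is the same box read from the other strand.
Alox12b promoter, chr11:69156822-69157121, plus strand: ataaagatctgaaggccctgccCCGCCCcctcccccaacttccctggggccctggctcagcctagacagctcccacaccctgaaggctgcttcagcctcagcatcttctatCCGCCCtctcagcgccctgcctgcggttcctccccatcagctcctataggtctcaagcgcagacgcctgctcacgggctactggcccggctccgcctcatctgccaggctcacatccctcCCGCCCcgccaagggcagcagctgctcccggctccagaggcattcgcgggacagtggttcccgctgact
Abca12 promoter, chr1:71414861-71415160, minus strand: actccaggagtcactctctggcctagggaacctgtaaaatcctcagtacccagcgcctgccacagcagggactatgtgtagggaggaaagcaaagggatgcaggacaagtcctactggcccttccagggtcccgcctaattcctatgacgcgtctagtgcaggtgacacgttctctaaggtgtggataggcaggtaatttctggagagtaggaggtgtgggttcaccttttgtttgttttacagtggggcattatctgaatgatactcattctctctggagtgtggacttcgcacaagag
Cyp4f39 promoter, chr17:32452473-32452772, plus strand: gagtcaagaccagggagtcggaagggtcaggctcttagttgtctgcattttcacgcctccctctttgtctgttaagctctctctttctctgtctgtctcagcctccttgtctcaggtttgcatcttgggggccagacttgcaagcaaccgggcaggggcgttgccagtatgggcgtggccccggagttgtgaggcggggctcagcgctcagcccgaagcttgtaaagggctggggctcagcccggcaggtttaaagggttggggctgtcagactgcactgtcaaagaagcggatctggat
Elovl4 promoter, chr9:83806256-83806555, minus strand: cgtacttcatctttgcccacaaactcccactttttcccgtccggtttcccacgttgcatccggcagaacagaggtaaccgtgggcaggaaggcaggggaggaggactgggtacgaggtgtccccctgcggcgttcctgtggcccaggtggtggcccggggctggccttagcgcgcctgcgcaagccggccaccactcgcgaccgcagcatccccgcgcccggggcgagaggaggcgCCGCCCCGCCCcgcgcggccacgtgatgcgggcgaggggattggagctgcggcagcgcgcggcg
Slc27a4 promoter, chr2:29802384-29802683, plus strand: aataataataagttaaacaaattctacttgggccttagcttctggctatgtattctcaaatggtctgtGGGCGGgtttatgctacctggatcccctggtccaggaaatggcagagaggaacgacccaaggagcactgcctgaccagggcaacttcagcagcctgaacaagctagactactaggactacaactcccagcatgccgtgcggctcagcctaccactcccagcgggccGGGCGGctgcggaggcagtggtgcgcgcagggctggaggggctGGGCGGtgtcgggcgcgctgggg

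A GC box was present in 5 of the 7 windows, those of Alox12b, Elovl4, Slc27a4, Abhd5 and Ugcg, and in 35.7% of 32851 RefSeq windows. Alox12b and Slc27a4, at the ends of the range of differences measured on both arrays, had 3 boxes each. The windows of Abca12 and Cyp4f39 had none. A link between boxes and tissue differences was not tested. TATAAA was in none of the 7 windows and in 13.6% of all, the AP-1 letters TGANTCA in none and in 7.81%, and the grainyhead-like letters AACCNGTT in none and in 2.09%. The DR1 element of the peroxisome proliferator-activated receptors, AGGTCA repeated after 1 base of any kind, was in none of the 7 and in 0.0396% of all. Both strands were searched, and these letters may occur outside the window. The share of G and C ran from 51.3% in Abca12 and 58.0% in Cyp4f39 to 71.0% in Elovl4 and 81.3% in Ugcg, and the median over all windows was 52.7%.

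To place the 9 genes in their pathways, 71 other genes of lipid metabolism were read in 7 lists. Of these, 70 were well above background on 1 array or more, and a 2-fold or larger difference was found toward skin in 29 of them (41.4%) and toward tooth in 6 (8.57%). Their median difference was 0.79. Over the 17409 measured named genes, 14.2% passed 2-fold toward skin and 15.5% toward tooth. The lists differed in how many of their genes passed 2-fold. Toward skin, ceramide release (18.2%) and nuclear factors (12.5%) lay near the share over all genes.

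**Figure D2:**
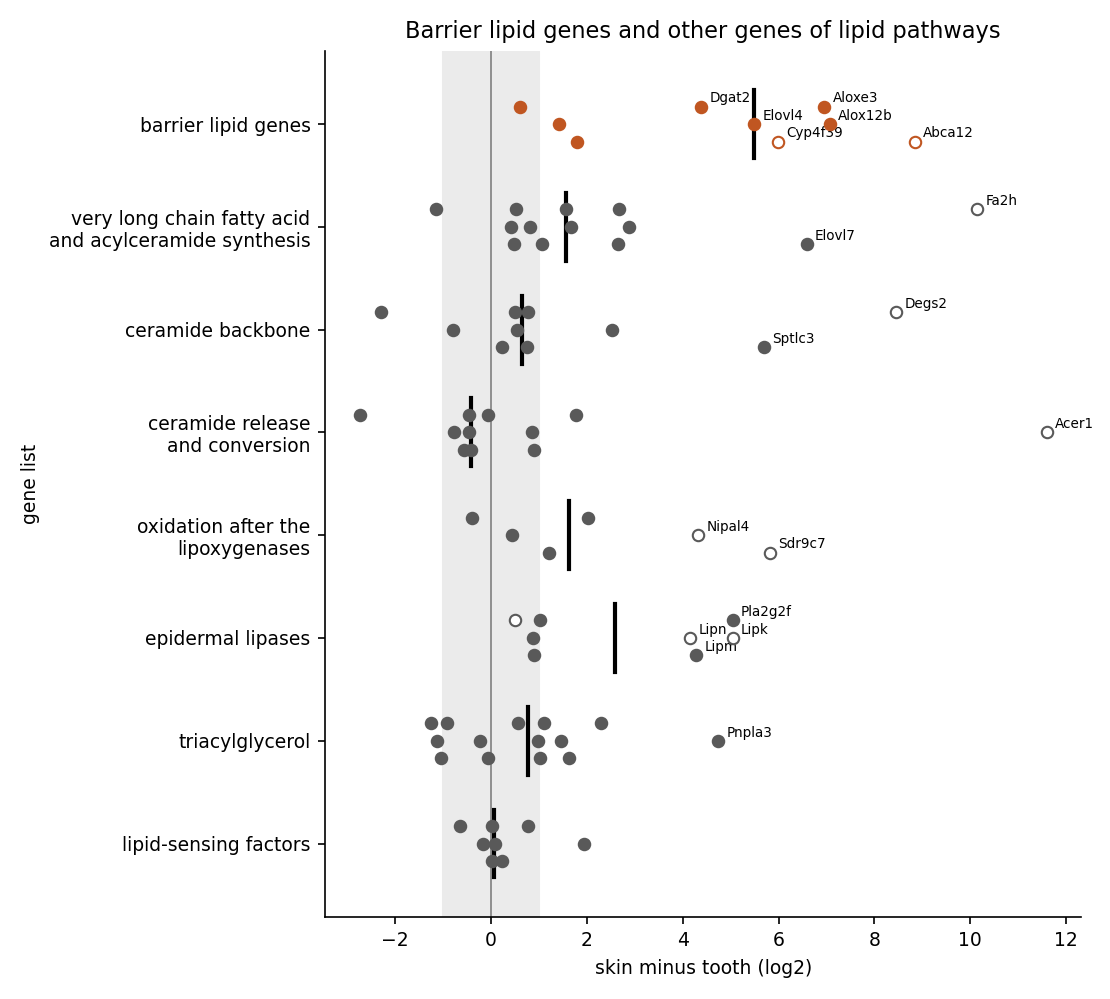
Difference between tissues (horizontal axis, log2, skin minus tooth) of the 9 barrier lipid genes (orange) and of 70 other genes in 7 lists (grey), 1 point per gene. Open circles were not well above background on 1 array, vertical bars are list medians and the shaded band is within 2-fold; the bar of the 9 genes stands at 5.49, and those of the other lists run from -0.43 for ceramide release to 2.59 for epidermal lipases.

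In the list of very long chain fatty acid and acylceramide synthesis, skin exceeded tooth by 2-fold or more in 8 of 13 genes and the reverse held for 1. Fa2h, the fatty acid 2-hydroxylase, was well above background in skin only, 290.4-fold above the limit in tooth. Elovl7 differed by 6.58. Cers3, the ceramide synthase that uses ultra-long acyl chains, differed by 2.88, and by its other probe at least 5.10-fold, with signal well above background in skin alone. Pnpla1, the transacylase that places linoleate on ceramide, differed by 2.68, and Elovl1 by 2.64. The elongase Elovl6 differed by 1.57, the dehydratase Hacd2 by 1.67 and the reductase Hsd17b12 by 1.06. Within 2-fold were Fasn (0.81) and Acaca (0.42), which make the starting fatty acid, and Tecr (0.51) and Hacd3 (0.47) of the elongation cycle. The dehydratase gene Hacd1 was higher in tooth (-1.16).

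In the list for the ceramide backbone, skin exceeded tooth by 2-fold or more in 3 of 10 genes and the reverse held for 1. The common subunits of serine palmitoyltransferase, which starts the pathway, differed by 0.49 (Sptlc1) and 0.55 (Sptlc2), whereas the alternative subunit Sptlc3 differed by 5.70. The desaturase Degs1 differed by 0.23, whereas its relative Degs2, which makes the hydroxylated bases of skin ceramides, was well above background in skin only (at least 91.7-fold). Among ceramide synthases, Cers4 was higher in skin (2.52) and Cers2 was higher in tooth (-2.30). Of 11 measured genes of ceramide release and conversion, 2 (18.2%) passed 2-fold toward skin and 1 (9.09%) toward tooth. The shares over all measured named genes were 14.2% and 15.5%. The alkaline ceramidase Acer1 was well above background in skin only, 885-fold above the limit in tooth, and Asah2 differed by 1.78. The sphingomyelinase Smpd1 (0.86), which frees ceramide in the outer layers, and the saposin precursor Psap (-0.43) lay within 2-fold. Sgms2, which turns ceramide into sphingomyelin, was higher in tooth (-2.75).

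Downstream of the lipoxygenases, 4 of 6 genes passed 2-fold toward skin and none toward tooth. Sdr9c7, the dehydrogenase that acts on the epoxyalcohol, was well above background in skin only (at least 24.1-fold), as was Nipal4 (at least 5.27-fold), a further ichthyosis gene. The epoxide hydrolase Ephx1 differed by 2.03, although its other probe gave 0.40, and Ephx3 by 1.21. Of 8 genes for epidermal lipases and lamellar body lipid enzymes, 5 passed 2-fold toward skin and none toward tooth. Pla2g2f differed by 5.04 and Lipm by 4.28, and Lipk (at least 13.8-fold) and Lipn (at least 6.63-fold) were well above background in skin only.

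Of 14 genes of triacylglycerol synthesis and breakdown, 6 (42.9%) passed 2-fold toward skin and 3 (21.4%) toward tooth. The shares over all measured named genes were 14.2% and 15.5%. Dgat1, which carries out the same step as Dgat2, differed by -0.07. Pnpla3 differed by 4.74 (3.20 by its other probe), Mgll by 2.30, and Pnpla2, the lipase that Abhd5 activates, by 1.02. Agpat1 (-1.25), Lpin1 (-1.13) and Lpin2 (-1.05), which act in earlier steps, were higher in tooth. Of 8 lipid-sensing nuclear factors, 1 (12.5%) was at least 2-fold higher in skin, Pparg at 1.94, and none in tooth. Under spike-in scaling the medians of the lists for ceramide backbone and triacylglycerol were 0.02 and 0.15.

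The 9 genes were also set beside relatives that share their family name. Of 43 measured relatives, 11 (25.6%) passed 2-fold toward skin and 4 (9.30%) toward tooth, beside 14.2% and 15.5% of all measured named genes. The lists overlap. Elovl1, Elovl6 and Elovl7 are also in the pathway lists, and Elovl3, Awat1 and Awat2 are among the sebocyte markers. All 3 measured relatives of the lipoxygenases were higher in skin, Alox12e by 7.74, Alox12 by 3.12 and Alox5 by 1.94, and neither array placed Alox8 or Alox15 well above background. Among elongases, Elovl3 was well above background in skin only (at least 134-fold), Elovl7, Elovl1 and Elovl6 differed by 6.58, 2.64 and 1.57, Elovl5 differed by -0.31, and Elovl2 was at least 4.19-fold higher in tooth, where alone it was well above background. In the family of Dgat2, the acyltransferases Awat1 (at least 31.2-fold), Dgat2l6 (at least 13.2-fold) and Awat2 (at least 9.53-fold) were well above background in skin only, and Mogat2 in tooth only (at least 4.66-fold).

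In the remaining families few relatives passed 2-fold. The shares over all measured named genes were 14.2% toward skin and 15.5% toward tooth. By their brightest probes, none of 10 measured relatives of Abca12 was at least 2-fold higher in skin, although the other probe of Abca5 differed by 1.99 where the brightest gave 0.86, and Abca4 was at least 2.52-fold higher in tooth. None of 12 measured relatives of Abhd5 was at least 2-fold higher in skin, and Abhd10 was higher in tooth (-1.18). All 4 measured relatives of Cyp4f39 lay within 2-fold, from -0.46 to 0.25. In the SLC27 family the order was different. Slc27a6 differed by 2.26, whereas Slc27a1, Slc27a3 and Slc27a5 lay within 2-fold, as did Slc27a4.

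The surroundings of the 9 genes were read from the mm9 coordinates of the probes. Within 100 kb there were 23 other named genes, of which 18 were well above background on 1 array or more. No named gene was counted near Abca12, Ugcg or Abhd5, and Elovl4 and Dgat2 had 1 measured neighbour each. None of the 18 was at least 2-fold higher in skin and 2 were at least 2-fold higher in tooth. The shares over all measured named genes were 14.2% and 15.5%, and the 18 genes were not tested against them. The median difference of the 18 genes was -0.40. Alox12b and Aloxe3 lie side by side, with their brightest probes 20.6 kb apart. Around them Per1 differed by 0.45, Aurkb by 0.16, Borcs6 by -0.34, Vamp2 and Hes7 by -0.69 and Tmem107 by -0.87. Their relative Alox8, 14.2 kb beyond Alox12b, was well above background in neither tissue. Mogat2, 65.4 kb from Dgat2, was seen in tooth and not in skin, and Cercam, near Slc27a4, differed by -1.48.

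**Figure D3:**
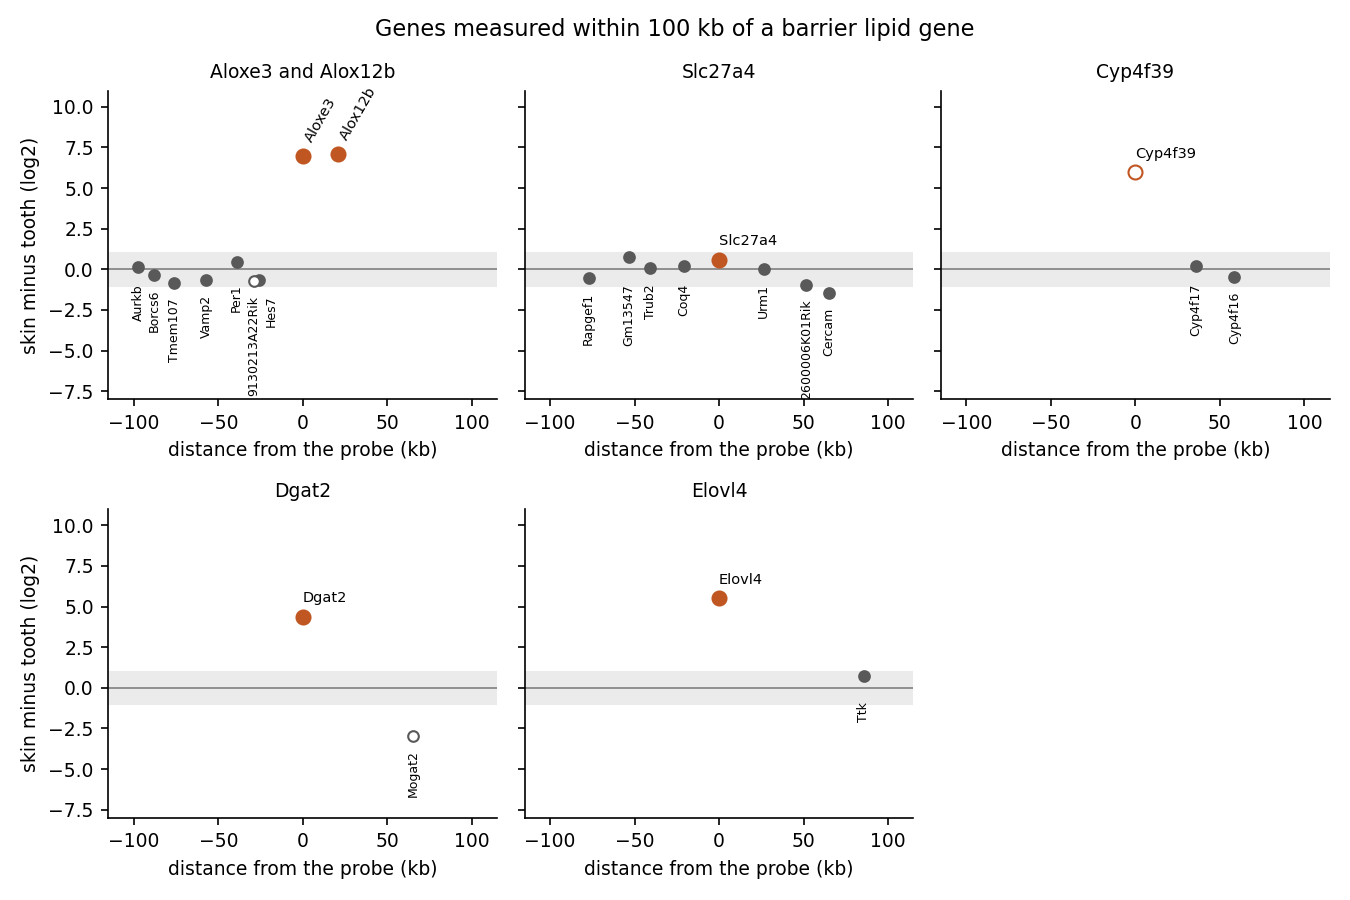
Difference between tissues (vertical axis, log2, skin minus tooth) against distance from the probe of a barrier lipid gene (horizontal axis, kb) for named genes within 100 kb, in 5 panels. Barrier lipid genes are orange and other genes grey, open circles were not well above background on 1 array and the shaded band is within 2-fold; no grey point lies above the band, and Cercam and Mogat2 lie below it.

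The differences were recomputed under 9 other settings. Of the 81 values that result for the 9 genes, 80 were above 0, and the exception was Slc27a4 under spike-in scaling. The differences measured on both arrays ranged over the settings from 3.75 to 4.397 for Dgat2, from 4.87 to 5.51 for Elovl4, from 5.61 to 6.97 for Aloxe3, from 4.30 to 7.09 for Alox12b, from 1.18 to 1.85 for Abhd5 and from 0.79 to 1.43 for Ugcg. For the genes whose tooth value was not well above background the ranges were 4.85 to 8.86 (Abca12) and 3.27 to 5.996 (Cyp4f39). The lower end for Alox12b is the mean of its probes. Under every setting the 6 genes of the high set were at least 2-fold higher in skin.

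**Figure D4:**
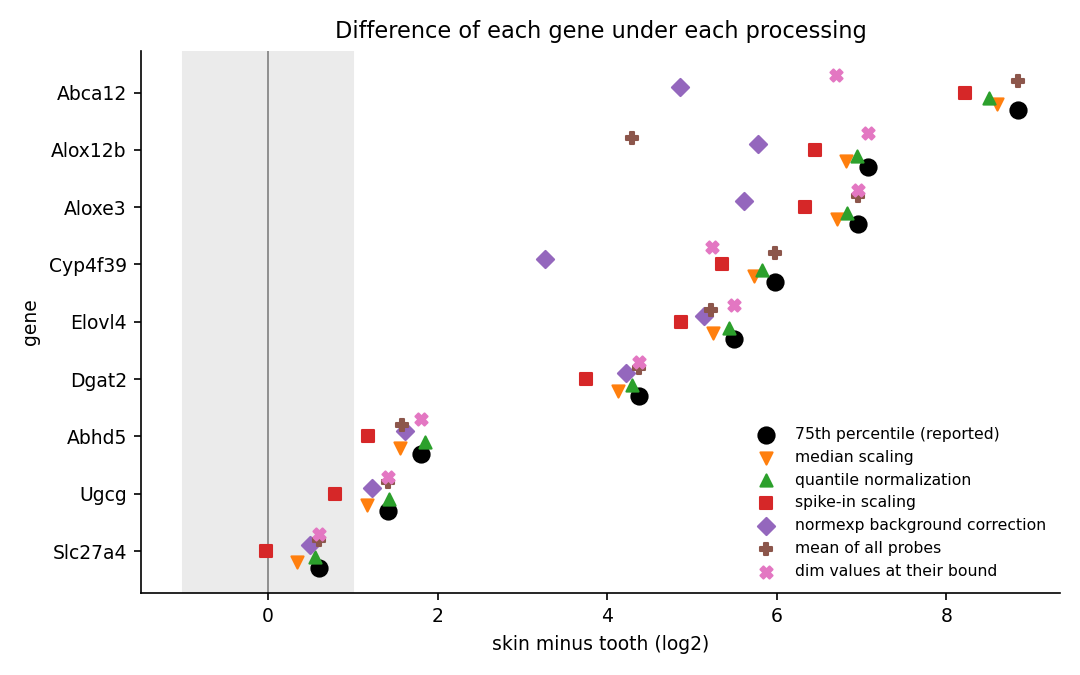
Difference between tissues (horizontal axis, log2, skin minus tooth) of the 9 genes under the reported setting (black) and 6 other settings (symbols), with the band within 2-fold shaded. The red squares of spike-in scaling lie left of the black points by 0.62, which takes Ugcg into the band and Slc27a4 to -0.03; the purple diamonds of normexp background correction lie farthest left for Abca12, Cyp4f39 and Aloxe3.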

How the data were processed

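Tooth and skin RNA was read on 1 array each of the same slide. The authors deposited spot intensities from Agilent Feature Extraction (version 10.7.3.1), in which background had been subtracted, trends across each array removed and surrogates put in place of the dimmest values. They also deposited a table in which each value is the ratio of that intensity to a single factor per array, and per the file headers other columns hold flags and probe coordinates in mm9.

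Outlier spots were left out, replicate spots were averaged, and log2 intensities were shifted to the 75th percentile of the 55675 probes. A probe was well above background where over 50% of its spots were flagged so. A gene was read from its brightest probe. The limit of a fold used the lowest signal placed well above background, -4.52 in tooth and -3.73 in skin, or the dim value where that was higher. Since some brighter spots missed the call, such a fold is a nominal limit and not a strict lower bound. Errors combine those of both spots. They cover the spot only, and leave out dissection, RNA preparation, labelling and animals. Gene names were matched to RefSeq (27234 of 33182 named probes, 82.1%). The exon under each probe was not analysed here, and sequences are from RefSeq (GRCm38.p6) or from the array files.

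The alternatives were normexp background correction (limma 3.58.1, R 4.3.3), median, quantile and spike-in scaling, the authors' table, the mean of all probes, other detection rules and dim values at their limit. Scripts ran in Python 3.11.15 and were tested on simulated data. All 9 genes were named, and of the lists any gene could be named, those at least 2-fold apart first. The 9 genes and all lists were chosen with earlier results of these data known. Genes were ranked by difference where both arrays had measured them. Levels of different probes were compared only to choose the brightest probe. The marker sums add the scaled levels of different probes on the linear scale, not as log2. Dim values were included, and bright probes weigh most in the sums.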

Additional observations from a re-analysis of the deposited data

Results flagged for a closer look

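Probes outside the named genes gave signal near these loci. Of 17 long non-coding probes within 100 kb of Ugcg, 7 were well above background on 1 array or more, 6 of them on both arrays and 1 in tooth only. The differences of the 6 ran from -0.36 to 0.50 (log2, skin minus tooth), and the brightest read 3.16 in tooth and 2.99 in skin. Of 4 probes without a gene name near Aloxe3, Slc27a4 and Ugcg, 3 were well above background on 1 array or more, with a difference of 1.03 near Aloxe3 and of 0.21 near Ugcg, and with signal in tooth only near Slc27a4. Negative-control spots were well above background in 0 of 308 cases in tooth and 1 of 308 in skin (0.325%). With 1 array per tissue, no group was large enough to look for outlying samples.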

How the results depend on the processing

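No paired analysis was possible because each tissue had 1 array, and no array could be left out. A value was taken as moved where it changed by over 0.498 (log2), the SD between probes of the same gene, and a count where it changed by over 1.5 times. Spike-in scaling lowered every difference by 0.62. It gave 1572 named genes past 2-fold toward skin and 5648 toward tooth, against 2466 and 2691, and a median of 4.87 for the 9 genes, of which 8 were higher in skin and 7 at least 2-fold. The list medians then were 0.95 for very long chain fatty acids, 0.023 for the ceramide backbone, -1.05 for ceramide release, 0.996 for lipid oxidation, 1.96 for lipases, 0.15 for triacylglycerol and -0.57 for nuclear factors, and the family medians were 6.33 (lipoxygenases), -0.082 (ABCA), 2.02 (ELOVL), -0.40 (SLC27), 4.67 (DGAT2 and MOGAT), -1.07 (ABHD) and -0.43 (CYP4F). Normexp correction gave 1665 genes in tooth, and medians of 4.22 for the 9 genes, 5.61 for lipoxygenases, 2.37 for DGAT2 and MOGAT and 1.23 for lipases. Dim values at their limit gave 3.72 for DGAT2 and MOGAT and 1.88 for lipases. The lipoxygenase median was 4.30 with the mean of all probes, 3.12 with no filter on dim probes and 5.04 with signal significantly above background. The median of the 9 genes was 4.38 with the mean of all probes and with Alox12b read by its other probe, an alternative chosen after seeing the data. The cause of these shifts was not tested, except that spike-in scaling is a constant by construction. Counts past 2-fold toward skin that moved were those of triacylglycerol (2 against 6 with spike-in scaling), nuclear factors (2 against 1 with the mean of all probes), the ABCA family (2 against 1 with the mean of all probes, which added Abca5, and with no filter or the lenient detection call, which added the dim Abca15) and basal markers (1 against 2 with median, quantile and spike-in scaling). Median scaling, quantile normalization and the authors' table moved none of the other values above. Differences near background, as for Abca12 and Cyp4f39 in tooth, are limited by the signal over background, and the number of arrays limits the precision of all values.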
